A study of Mus musculus with 53 samples.

Results

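WGD+ tumours were compared with WGD- tumours in immunodeficient NSG mice treated with YM-155. WGD stands for whole genome doubling, and both forms derive from TA3 Hauschka, a mouse mammary tumour cell line engineered to be WGD+ or WGD-. The comparison used the 3 libraries titled NSG WGD+ YM-155 and the 3 titled NSG WGD- YM-155, which are 6 of the 53 libraries of the series and belong to an experiment of 24 libraries in 8 groups. For every group of that experiment cells were placed in Matrigel in an inguinal mammary fat pad, the hosts were female and 6 weeks old, and YM-155 or vehicle was given for 14 days. The NSG host is, by its strain name, a NOD.Cg-Prkdcscid mouse with the Il2rgtm1Wjl allele and a transgene, 1Eav, that carries the cytokine genes IL3, CSF2 and KITLG behind the CMV promoter, in the colony MloySzJ, and all 6 tumours grew in it. The other hosts were A/J mice, which are immunocompetent. The sources used here do not say how the doubled form was made, whether it is 1 clone, which dose of YM-155 was given, or whether each library of a group is a separate animal. The p-values therefore speak of the scatter among these libraries, which may be technical.

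Whole genome doubling gives a cell an additional set of chromosomes. It is frequent in carcinomas, and doubled cells commonly lose chromosomes afterwards and rely more on the mitotic checkpoint. YM-155 is a small molecule found as a suppressor of the expression of survivin, a protein encoded by Birc5 that belongs to the inhibitor of apoptosis family and is also a subunit of the chromosomal passenger complex of mitosis. Mice with both host mutations lack mature T and B cells and NK cells, while macrophages, fibroblasts and endothelium of the host still enter the tumour.

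The form was taken from the title, because the genotype field gives WGD+ for all 6 libraries and so differs from the title in 3 of them, as it does in 12 of the 24 libraries of the experiment. Levels below are log2(CPM + 1), where CPM is the read count scaled by library size, and a change is the WGD+ mean minus the WGD- mean with its standard error (SE). This scale understates the change of low genes. The 6 libraries held 6.31 to 7.48 M assigned reads, with M for mega, so that 1 read was worth 0.134 to 0.167 CPM. Correlations across genes were 0.976 to 0.982 between WGD+ libraries, 0.984 to 0.987 between WGD- libraries and 0.965 to 0.982 between the forms. None of the 6 stood apart from the rest, but 4 A/J libraries of the same experiment did (WGD+ YM-155 replicate 2, WGD- YM-155 replicate 1 and WGD- vehicle replicates 1 and 2), and they enter the shared estimate of the spread. Of 14 T and NK cell markers 7 (Cd3g, Cd8b1, Nkg7, Gzma, Prf1, Ncr1 and Cd2) had 0 reads in all 6 libraries, as had the B and plasma cell markers Ms4a1, Jchain and Pax5. The NK receptor gene Klrb1c was an exception, with averages of 4.38 in WGD+ and 4.11 in WGD- tumours, and the T and NK list summed to 19.3 to 23.9 CPM in WGD+ and 14.4 to 20.2 CPM in WGD- tumours. Among 7 tumour cell markers 0 were called different, with Krt8 at 9.80 in WGD+ and 9.53 in WGD- tumours and Epcam at 7.38 and 7.54 in the same order.

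Between WGD+ and WGD- tumours under YM-155, limma called 219 of 13826 genes at a Benjamini-Hochberg adjusted p under 0.05, which is 1.58% of the genes tested. Of these, 78 were higher in WGD+ tumours (0.564%) and 141 were lower (1.02%), with 45 of the higher and 80 of the lower genes past a change of 1 on the log2 scale. The median change over all genes was -0.001. In 218 of the 219 the 3 WGD+ libraries did not overlap the 3 WGD- libraries, which held for 23.5% of all genes tested. The count depended on the libraries that set the spread. With the 12 NSG libraries alone, 952 genes were called (6.89%), 410 higher (2.97%) and 542 lower (3.92%), and they included 218 of the 219. Without the 4 A/J libraries that stand apart, 979 were called, 412 higher and 567 lower. The count was 122, 55 and 156 without WGD+ replicate 1, 2 and 3, and 104, 52 and 109 without WGD- replicate 1, 2 and 3.

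Birc5 itself did not pass. Its level was 7.07, 7.52 and 6.89 in WGD+ tumours, against 6.70, 6.82 and 7.05 in WGD- tumours. The groups overlapped, and the change was 0.30 (SE 0.18, limma adjusted p = 0.444). Of 25 regulators of apoptosis in the BCL2 and IAP families, 0 were called and the median change was 0.01. Bad, which promotes apoptosis by binding BCL2 proteins, had a change of 0.42, and Apaf1, the scaffold of the apoptosome, one of -0.52, both short of the threshold (limma adjusted p = 0.133 and 0.221).

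The largest called increase was in Stra6, which encodes the cell surface receptor for retinol-binding protein. Stra6 had 5.94, 6.18 and 6.96 in WGD+ tumours, against 3.68, 2.75 and 2.98 in WGD- tumours, a change of 3.23 (SE 0.45, limma adjusted p = 0.00078). Crabp2, which carries retinoic acid to its nuclear receptors, moved the other way. It had 1.93, 3.49 and 2.63 in WGD+ tumours, against 5.16, 4.91 and 4.08 in WGD- tumours, a change of -2.03 (SE 0.39, limma adjusted p = 0.00884), called in 3 of the 6 fits that left out a library (adjusted p up to 0.0548). The forms did not overlap for either gene, which for Stra6 was a condition of its naming by size. Of 16 tested genes of retinoid uptake and signalling these were the ones called, 1 in each direction, and the median change of the list was 0.11. The nuclear receptor genes Rara and Rxra had changes of -0.34 and -0.30 and were not called. Stra6 lies on the strand opposite to Ccdc33 and overlaps it, and the sources used here do not say whether reads were counted by strand. Of the called genes named below, Ccnd2, Osr1, Lss, Trp53bp1, Crim1, Wnt5b and Srebf1 also overlap a gene of the opposite strand. The gene model A530065N20Rik, which has no symbol of its own and was named after its value was seen, had the next largest increase, of 3.18 (limma adjusted p = 1.11e-06), and differed by 2.21 under vehicle, where it was also called.

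Slc7a11 encodes the cystine and glutamate exchanger that supplies cystine for glutathione synthesis. It had 6.74, 6.48 and 7.12 in WGD+ tumours, against 4.58, 4.34 and 4.73 in WGD- tumours. The change was 2.23 (SE 0.27, limma adjusted p = 0.000105), with no overlap, a condition of its naming by size. Over all groups it was the 1 gene called among 25 of glutathione synthesis, cystine uptake and the NRF2 response, whose median change was 0.15. With the 12 NSG libraries alone 4 of the 25 were called higher and 1 lower, against 6.89% of all genes. The list summed to 9490, 12200 and 9620 CPM in WGD+ tumours, against 7210, 7180 and 7670 CPM in WGD- tumours, without overlap. Sums without overlap were also found for other lists, among them G2/M, complement and coagulation, and the cytosolic ribosome. The share of such lists was not counted, so this separation is not particular to the glutathione list. Slc3a2, the gene of the partner subunit of Slc7a11, had 8.69 ± 0.10 in WGD+ tumours and 8.33 ± 0.24 in WGD- ones (SD, n = 3 each). That change of 0.36 was not called over all groups. Slc7a11 is also known as a target of ATF4, the transcription factor of the amino acid stress response. The list of 18 ATF4 targets tested does not hold Slc7a11, and of its members Nupr1, a stress-induced nuclear protein gene, was the 1 called. Nupr1 had 6.37, 6.16 and 5.81 in WGD+ tumours, against 4.88, 5.03 and 5.40 in WGD- tumours, a change of 1.01 (SE 0.23, limma adjusted p = 0.0234) that was called in 2 of the 6 fits without a library (adjusted p up to 0.125). Other ATF4 targets did not pass, among them the serine synthesis gene Phgdh with a change of 0.48, Trib3 with -0.34 and Ddit3 with 0.29.

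The promoter windows of Slc7a11 and Nupr1 are shown because each holds the core of the C/EBP and ATF response element, TGATGNAA, searched on both strands. That of Gclm, the modifier subunit gene of glutamate cysteine ligase, is shown for contrast as it holds the core of the antioxidant response element, TGACNNNGC, to which NRF2 binds. Windows run from 250 bases before to 50 after the RefSeq start site on GRCm38.p6, are given 5′ to 3′ on the strand of the gene, and have the matches in capitals. Slc7a11 lies at chr3:50443564-50443863 on the minus strand, Nupr1 at chr7:126625421-126625720 on the minus strand and Gclm at chr3:122245307-122245606 on the plus strand.
Slc7a11: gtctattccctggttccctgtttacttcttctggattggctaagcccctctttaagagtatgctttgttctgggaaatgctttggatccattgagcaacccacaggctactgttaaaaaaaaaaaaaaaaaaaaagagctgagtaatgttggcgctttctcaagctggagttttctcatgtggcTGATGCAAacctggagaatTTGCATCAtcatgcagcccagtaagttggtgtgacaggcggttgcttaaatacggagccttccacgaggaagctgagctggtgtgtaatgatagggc
Nupr1: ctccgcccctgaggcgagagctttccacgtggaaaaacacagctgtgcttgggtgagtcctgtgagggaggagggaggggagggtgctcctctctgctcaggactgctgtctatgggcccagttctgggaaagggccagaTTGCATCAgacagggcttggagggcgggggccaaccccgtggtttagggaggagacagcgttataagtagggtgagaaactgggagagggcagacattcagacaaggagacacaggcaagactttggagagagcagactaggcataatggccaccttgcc
Gclm: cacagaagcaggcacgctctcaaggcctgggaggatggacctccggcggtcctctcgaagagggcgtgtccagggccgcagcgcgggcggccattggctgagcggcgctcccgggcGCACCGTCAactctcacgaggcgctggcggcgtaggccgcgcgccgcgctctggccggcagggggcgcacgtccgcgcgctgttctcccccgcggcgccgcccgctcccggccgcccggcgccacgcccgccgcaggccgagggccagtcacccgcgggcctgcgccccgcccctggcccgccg
TGATGNAA occurred in 2 places in the Slc7a11 window, once on each strand, and in 1 in the Nupr1 window, and neither window held TGACNNNGC. TGATGNAA was found in 3.97% and TGACNNNGC in 12.4% of 32851 mouse promoter windows of this length. Of the 40 genes named here for the size of their change or from a list, 27 had a window in the table, 38 windows in all. The first motif was in 4 of these windows, from 4 genes (Slc7a11, Nupr1, Ctsl and Matn4), and the second in 6, from 6 genes (Spn, Twist1, Wnt5b, Slc13a3, Fgfr3 and Tex19.1). A match of letters is a description and no evidence that a factor binds there.

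Mfge8 had the smallest p-value among the genes that rose. It encodes a secreted protein that bridges phosphatidylserine on dying cells to integrins of phagocytes. Mfge8 had 9.69, 9.84 and 9.32 in WGD+ tumours, against 7.43, 7.28 and 7.17 in WGD- tumours, a change of 2.33 (SE 0.17, limma adjusted p = 1.84e-08). Ccnd2, which encodes cyclin D2, had 7.03, 6.34 and 6.56 in WGD+ tumours, against 5.02, 5.22 and 4.76 in WGD- tumours. Its change of 1.64 (SE 0.40, limma adjusted p = 0.0429) was the 1 call among 20 cyclins, cyclin-dependent kinases and their inhibitors, and was lost with any of the 6 libraries left out (adjusted p up to 0.13). Osr1, a zinc finger transcription factor gene, had 5.40 ± 0.39 in WGD+ tumours and 3.66 ± 0.46 in WGD- ones (SD, n = 3 each), a change of 1.73 that was called. The carboxylesterase gene Ces2g and the histone gene Hist1h2bc rose by 1.53 and 1.41. Both belong to families of related genes among which reads may be misassigned, which was not tested. Ces2g was called in 0 and Hist1h2bc in 1 of the 6 fits without a library (limma adjusted p up to 0.159 and 0.165).

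Also among the genes named for the size of their increase were S100a4, S100a6 and Emp3. S100a4, a calcium-binding protein gene expressed in fibroblasts and in migrating tumour cells, had 5.63, 5.93 and 5.55 in WGD+ tumours, against 3.71, 3.26 and 3.59 in WGD- tumours, a change of 2.18 (SE 0.29, limma adjusted p = 0.000271). Its neighbour S100a6 had 9.90, 10.63 and 9.59 in WGD+ tumours, against 8.21, 8.64 and 8.83 in WGD- tumours, a change of 1.48 (SE 0.25, limma adjusted p = 0.00345). The membrane protein gene Emp3 had 6.24, 6.99 and 6.73 in WGD+ tumours, against 5.05, 4.84 and 5.10 in WGD- tumours, a change of 1.65 (SE 0.26, limma adjusted p = 0.00132). In all 3 genes the forms were apart, as the naming by size required, and each was called in all 6 fits that left out a library. Plaur, the receptor of urokinase, had a change of 1.24 (7.01 ± 0.34 in WGD+ tumours and 5.77 ± 0.11 in WGD- ones, SD, n = 3 each, limma adjusted p = 0.00272). It was the 1 call among 18 genes of complement and coagulation, whose median change was 0.62. Twist1, a transcription factor of epithelial-mesenchymal transition, rose by 0.98, the 1 call among 19 genes of that list. Ctsl, which encodes the lysosomal protease cathepsin L, rose by 0.62. Both calls held in 1 of the 6 fits without a library (adjusted p up to 0.263 and 0.165).

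**Figure D1:**
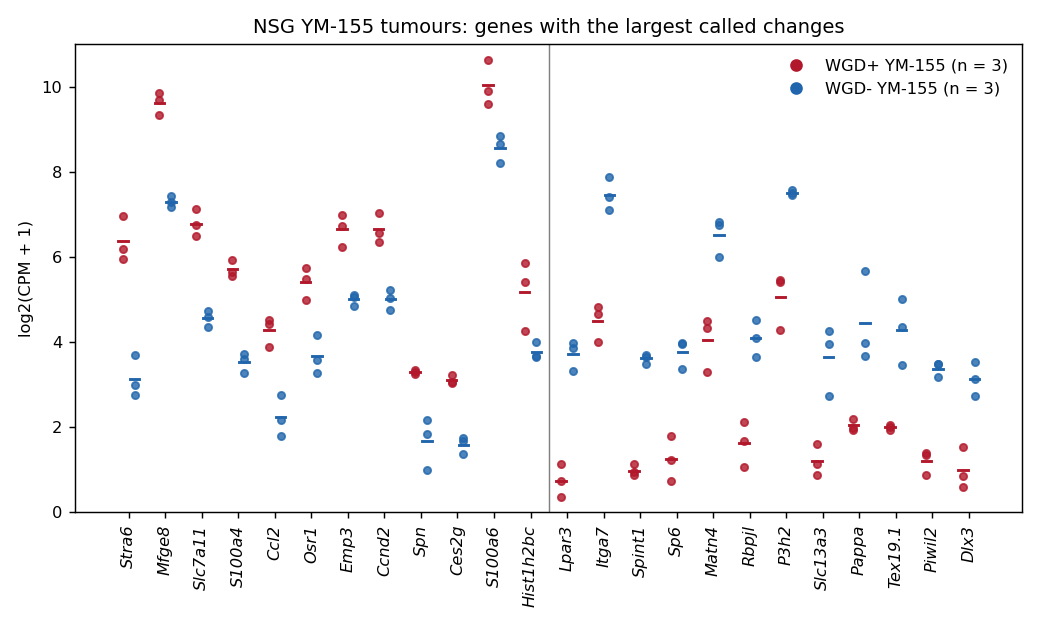
Level in log2(CPM + 1) of 12 genes with a large called increase (left) and 12 with a large called decrease (right), taken by size of change among called genes with a symbol of their own, separate libraries and a mean of at least 3 in the higher form, with 1 point per library, WGD+ YM-155 tumours in red left of WGD- YM-155 tumours in blue, and a bar at each mean (n = 3 each). The forms do not overlap in any of the 24, a condition of the naming rule, and Stra6 and Lpar3 have the largest difference of means in their panel.

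The largest called decreases were in a receptor and an integrin. Lpar3, a receptor for lysophosphatidic acid, had 0.74, 1.12 and 0.35 in WGD+ tumours, against 3.98, 3.85 and 3.31 in WGD- tumours, a change of -2.98 (SE 0.37, limma adjusted p = 0.000122). It was the 1 call among 13 lysophospholipid receptors and enzymes, and the receptor gene Lpar2 had a change of -0.21 and was not called. Itga7, the integrin alpha chain that binds laminin, had 4.0, 4.81 and 4.66 in WGD+ tumours, against 7.40, 7.87 and 7.09 in WGD- tumours, a change of -2.97 (SE 0.42, limma adjusted p = 0.000879). It was likewise the 1 call among 22 integrins and laminins, whose median change was 0.11. The 3 WGD+ libraries were lower than all 3 WGD- libraries in both genes, as the naming by size required.

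Spint1, a membrane-bound inhibitor of serine proteases of epithelia, had 0.95, 1.12 and 0.86 in WGD+ tumours, against 3.49, 3.65 and 3.70 in WGD- tumours, a change of -2.64 (SE 0.41, limma adjusted p = 0.00103). P3h2, a collagen prolyl 3-hydroxylase, had 5.40, 4.29 and 5.45 in WGD+ tumours, against 7.45, 7.58 and 7.49 in WGD- tumours, a change of -2.46 (SE 0.32, limma adjusted p = 0.000271). Pappa, a protease that cleaves binding proteins of insulin-like growth factors, had 1.98, 1.94 and 2.19 in WGD+ tumours, against 5.66, 3.67 and 3.98 in WGD- tumours, a change of -2.40 (SE 0.46, limma adjusted p = 0.00806). WGD- replicate 1 was the highest library, and the call was lost without WGD+ replicate 2 (adjusted p = 0.0537, the highest of any fit tried). Matn4, the matrix protein matrilin 4, and Rbpjl, a relative of the Notch effector RBPJ, fell by 2.49 and 2.47. These 2 genes overlap on opposite strands of chromosome 2, so their reads may not be told apart. The sodium and dicarboxylate transporter gene Slc13a3 fell by 2.45 and also lies on chromosome 2.

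Sp6 and Dlx3, transcription factor genes known from skin and tooth development, also fell. Sp6 had 0.74, 1.23 and 1.79 in WGD+ tumours, against 3.36, 3.98 and 3.94 in WGD- tumours, a change of -2.50 (SE 0.37, limma adjusted p = 0.00077). Sp6 overlaps the gene model Gm11532 on the opposite strand, which had a called change of -2.49, so their reads may not be told apart. Dlx3 had 0.85, 0.59 and 1.54 in WGD+ tumours, against 2.73, 3.53 and 3.13 in WGD- tumours, a change of -2.14 (SE 0.33, limma adjusted p = 0.00113). Tex19.1 and Piwil2, which act in the germ line on transposon silencing, fell by 2.28 and 2.19 with levels of 2.0 ± 0.06 and 1.19 ± 0.28 in WGD+ tumours and 4.27 ± 0.78 and 3.38 ± 0.18 in WGD- ones (SD, n = 3 each). They were called in 1 and 0 of the 6 fits without a library (adjusted p up to 0.157 and 0.118). Areg, which encodes the growth factor amphiregulin, fell by 1.16, and the fibroblast growth factor receptor gene Fgfr3 by 1.49. These were the 2 calls among 27 receptor tyrosine kinases and ligands, and Areg was the 1 call among 17 mammary luminal and basal factors, whose median change was -0.48 with 16 of 17 below 0.

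Of the cholesterol synthesis list 1 gene was called lower. Lss, which encodes the enzyme that closes the sterol ring, had 6.03, 5.43 and 5.78 in WGD+ tumours, against 6.65, 6.79 and 6.65 in WGD- tumours, a change of -0.95 (SE 0.19, limma adjusted p = 0.0108), called in 4 of the 6 fits without a library. The list held 20 tested genes, of which 20 had a change below 0 and 10 an unadjusted p under 0.05 (15.6% of all genes tested had one, in either direction), with a list median of -0.45 against -0.001 for all genes. With the 12 NSG libraries alone 7 of the 20 were called lower, against 3.92% of all genes. The summed level of the list was 1780, 1460 and 1350 CPM in WGD+ tumours, against 1850, 2170 and 2150 CPM in WGD- tumours. The groups did not overlap, which was also so for the sums of several other lists. The pathway enzymes Dhcr7 and Sqle had changes of -0.74 and -0.53 and did not pass. Of 20 genes of fatty acid synthesis and storage 2 were called, both lower. They were the desaturase gene Scd2, which fell by 0.83 (8.87 ± 0.28 in WGD+ tumours and 9.70 ± 0.21 in WGD- ones, SD, n = 3 each), and Srebf1, the sterol regulatory transcription factor gene, which fell by 0.93. Srebf1 was called in 0 of the 6 fits without a library (adjusted p up to 0.242). The hypoxia and glycolysis list had 1 call among 21, Pdk1, a kinase that restrains pyruvate dehydrogenase, which fell by 1.26 and lies on chromosome 2.

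Cell division and DNA repair lists held few or no calls over all groups. Of 18 G2/M genes 0 were called, with a median of -0.10, and 3 were called lower with the 12 NSG libraries alone. The fit of those 12 libraries called 2.97% of all genes higher and 3.92% lower. The spindle checkpoint genes Bub1 and Bub1b, both on chromosome 2, had changes of -0.57 and -0.59, short of the threshold (limma adjusted p = 0.0723 and 0.119). Among 14 centrosome and ploidy checkpoint genes and 19 DNA replication genes 0 were called, with medians of -0.25 and 0.02, and with the 12 NSG libraries alone 1 centrosome and checkpoint gene was called lower and 0 replication genes were called. Of 18 DNA damage response genes, Trp53bp1, which encodes a protein that binds at double-strand breaks and lies on chromosome 2, was the 1 call and fell by 0.64. Of 19 p53 targets, Phlda3, which encodes an inhibitor of AKT signalling, was the 1 call. It had 8.55, 9.12 and 8.53 in WGD+ tumours, against 8.03, 8.11 and 7.89 in WGD- tumours, a change of 0.73 (SE 0.16, limma adjusted p = 0.016). The calls of Trp53bp1 and Phlda3 each held in 2 of the 6 fits without a library (adjusted p up to 0.239 and 0.143). With the 12 NSG libraries alone 1 DNA damage response gene was called higher and 3 lower, and 1 p53 target higher and 2 lower.

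Fibroblast, macrophage and endothelial marker lists had medians above 0 and 1 call in all. Of 11 fibroblast and matrix markers 10 had a change above 0, with a median of 0.92, and 1 was called, Lum, which encodes the proteoglycan lumican. Lum had 2.16, 2.81 and 3.25 in WGD+ tumours, against 1.01, 0.00 and 1.20 in WGD- tumours, and its call was lost without any 1 of the 6 libraries (adjusted p up to 0.254). All 13 macrophage and monocyte markers and all 9 endothelial markers had changes above 0, with medians of 0.91 and 0.75, and 0 of either list were called. The macrophage gene Lyz2 had a change of 1.42 and the endothelial gene Pecam1 one of 0.95 (limma adjusted p = 0.122 and 0.0958). Neutrophil markers went the other way, with 6 of 6 tested below 0, a median of -0.24 and 0 called, and their sums overlapped at 128, 142 and 181 CPM in WGD+ tumours, against 134, 247 and 172 CPM in WGD- tumours. In the fit of the 12 NSG libraries 2 fibroblast and 2 endothelial markers were called, all higher, and 0 macrophage or neutrophil markers. Of all genes, 2.97% were called higher there. In bulk tumours fewer cells of a type and less RNA per cell cannot be told apart.

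The summed marker levels differed widely between libraries of a form. Fibroblast markers summed to 824, 1150 and 2560 CPM in WGD+ tumours, against 1300, 421 and 679 CPM in WGD- tumours. Macrophage markers summed to 310, 490 and 815 CPM in WGD+ tumours, against 304, 152 and 337 CPM in WGD- tumours. The groups overlapped in both, while endothelial markers, at 82.8, 122 and 139 CPM in WGD+ tumours against 74.5, 62.7 and 52.7 CPM in WGD- tumours, did not overlap. The sums of several pathway lists did not overlap either. WGD+ replicate 3 was the highest library in all 3 lists. S100a4, S100a6, Emp3, Plaur, Ctsl, Lum and the chemokine gene Ccl2 are also expressed by fibroblasts or myeloid cells, and the part of host cells in their change was not tested. WGD+ replicate 3 was the highest of the WGD+ libraries for Lum and Ccl2, the middle one for Emp3 and the lowest for S100a4, S100a6, Plaur and Ctsl. Ranks of so few libraries do not test where the RNA came from. Ccl2, the attractant of monocytes, had 3.88, 4.43 and 4.51 in WGD+ tumours, against 2.16, 1.78 and 2.75 in WGD- tumours, a change of 2.05 (SE 0.43, limma adjusted p = 0.016), the 1 call among 24 chemokines and cytokines, and held in 2 of the 6 fits without a library (adjusted p up to 0.122). Spn, which encodes the leukocyte surface protein CD43, had a change of 1.62. Skeletal muscle markers had 11 of 11 below 0 with 0 called, and summed to 265, 464 and 397 CPM in WGD+ tumours, against 517, 522 and 496 CPM in WGD- tumours.

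The interferon and MHC lists had medians above 0 and 0 calls over all groups. Of 25 type I interferon genes 24 had a change above 0, with a median of 0.56, and of 17 interferon-gamma genes 15 did, with a median of 0.58. The 10 MHC class II genes had a median change of 1.08 and the 14 MHC class I genes 0.40. With the 12 NSG libraries alone 4 MHC class I, 3 MHC class II, 1 interferon-gamma and 0 type I interferon genes were called, all higher. Over all genes tested, that fit called 2.97% higher and 3.92% lower. As single values of genes not called over all groups, Ifit3, an interferon-induced antiviral gene, had 2.52 in WGD+ and 1.40 in WGD- tumours on average (limma adjusted p = 0.43). H2-Ab1, a class II chain, had 3.81 and 1.71 in the same order (limma adjusted p = 0.33). The 23 matrix proteases and inhibitors had a median of 0.71 with 1 call each way, Ctsl higher and Pappa lower. The 16 cytosolic ribosomal protein genes all had changes above 0, with a median of 0.44 and 0 calls, and that median was 0.14 after quantile normalization. Of the 16, 5 were called higher with the 12 NSG libraries alone. The other lists with 0 calls were those of the respiratory chain (median 0.23), TGF-beta and BMP signalling (0.13), Notch signalling (0.02), cGAS and STING sensing (0.18) and keratins (0.06). The Notch list had, with the 12 NSG libraries alone, 2 genes called higher and 3 lower, the TGF-beta and BMP list 2 each way, the cGAS and STING list 2 higher, the respiratory chain list 1 higher and the keratins 1 lower. In the YAP and Wnt lists 1 gene each rose, Crim1 by 0.61 and Wnt5b by 1.11, with list medians of 0.19 and 0.01.

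**Figure D2:**
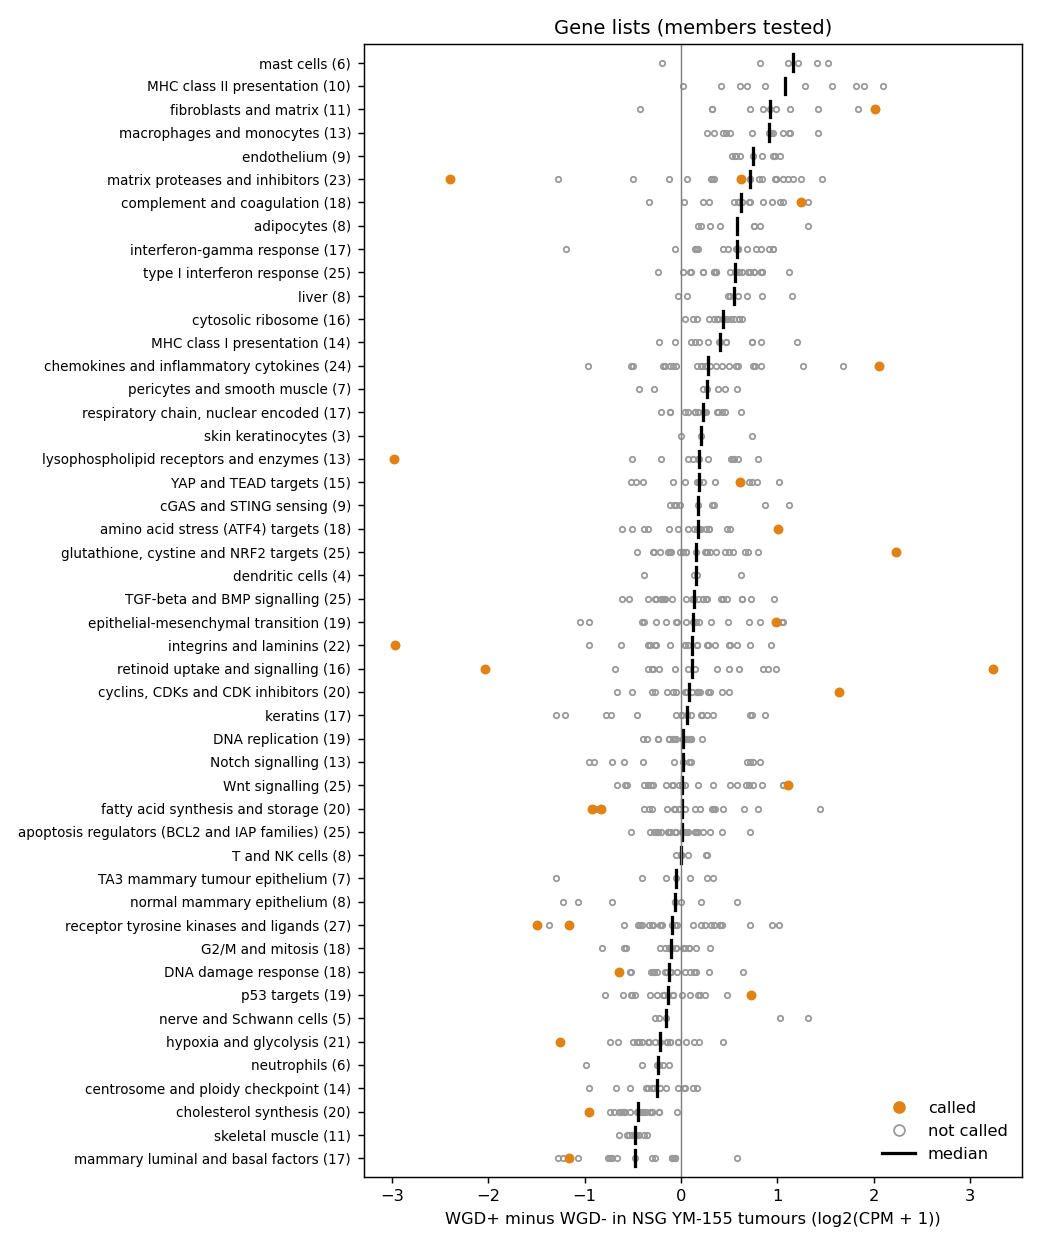
Change between WGD+ and WGD- tumours under YM-155, on the log2(CPM + 1) scale, for each tested member (points, filled where called) of the gene lists with at least 3 tested members, ordered by the list median (black bar), with the number tested in parentheses. Cholesterol synthesis sits below 0 throughout, and the fibroblast, macrophage and endothelium lists sit mostly above 0 with 1 filled point between them.

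Genes that were lower in WGD+ tumours were unevenly spread over the genome. Over the 9874 genes with a mean level of at least 3, the median change was -0.27 for the 780 genes of chromosome 2, -0.19 for the 633 of chromosome 5 and -0.25 for the 341 of chromosome 14. The medians of the other 17 chromosomes lay between -0.05 and 0.08. Chromosomes 2, 5 and 14 held 67 of the 141 genes called lower, or 47.5%, against 17.4% of the genes tested, and they held 2 of the 78 called higher. Chromosome 2 alone held 45 of the 141 (31.9%, against 7.69% of the genes tested), among them Spint1, Matn4, Rbpjl, Slc13a3, Pdk1 and Trp53bp1. These chromosomes were singled out after their values were seen.

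The shift was broad rather than set by a few genes, as 77.9%, 77.6% and 77.1% of the genes of chromosomes 2, 5 and 14 were lower in WGD+ tumours. As a median deviation from the mean of the 6 libraries, the chromosome 2 genes stood at -0.11, -0.12 and -0.14 in WGD+ tumours, against 0.11, 0.13 and 0.16 in WGD- tumours. Chromosome 5 stood at -0.09, -0.07 and -0.10 in WGD+ tumours, against 0.09, 0.08 and 0.10 in WGD- tumours. Chromosome 14 stood at -0.09, -0.10 and -0.15 in WGD+ tumours, against 0.14, 0.11 and 0.13 in WGD- tumours. The forms were apart on each, as they were on 8 of the 20 chromosomes in all. The exact permutation test over the 6 libraries gave p = 0.1 for each of the 3 (two-sided), the smallest it can give with 3 against 3. It gave the same value on chromosomes 1 and 10, with medians of 0.01 and 0.08, where the forms were also apart. The 3 chromosomes were chosen from these same libraries, so the test adds no support for them.

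Along chromosome 2 the medians of 20 Mb windows ran from -0.06 at 20 to 40 Mb (179 genes) to -0.46 at 100 to 120 Mb (75 genes). Every window of the 3 chromosomes was below 0. The same 3 chromosomes had the lowest medians in the other WGD contrasts of the experiment, which share no library with this one. The medians for chromosomes 2, 5 and 14 were -0.19, -0.15 and -0.17 in NSG vehicle tumours, -0.31, -0.23 and -0.22 in A/J YM-155 tumours and -0.15, -0.16 and -0.14 in A/J vehicle tumours. They were also the 3 lowest in A/J mice under the isotype antibody (-0.04, 0.01 and -0.02), under anti-PD-L1 (-0.07, -0.03 and -0.08) and at day 14 (-0.12, -0.1 and -0.09). Under anti-CD8 they were not the 3 lowest, although their medians were -0.25, -0.11 and -0.24, because chromosome X had -0.14. At day 8 they were -0.01, -0.05 and 0.03 and not the 3 lowest. Rank and size of the shift thus differed between contrasts. The labels give no copy number of any chromosome, and the cause of the shift was not tested.

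**Figure D3:**
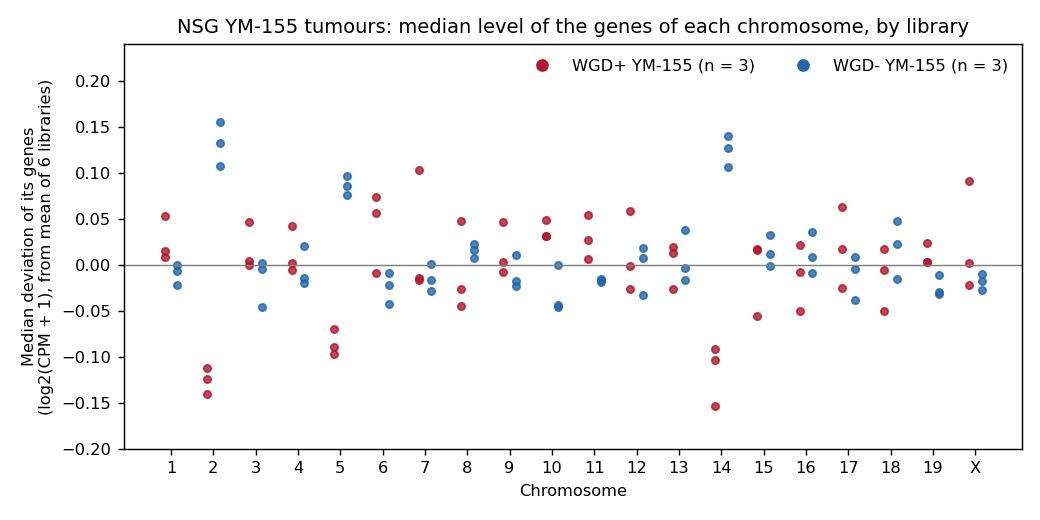
Median deviation of the genes of each chromosome from their mean over the 6 libraries, on the log2(CPM + 1) scale, with 1 point per library, WGD+ YM-155 tumours in red left of WGD- YM-155 tumours in blue (genes with a mean level of at least 3). On chromosomes 2, 5 and 14 the 3 WGD+ libraries lie near -0.1 and the 3 WGD- libraries near 0.1, and on the other chromosomes the points lie closer to 0, apart from 1 WGD+ library each on chromosomes 7 and X.

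To see whether the WGD difference depended on the drug, it was set beside the same difference in NSG tumours given vehicle, from separate libraries. The 219 genes were chosen for their change under YM-155. Of them, 202 had the same direction under vehicle, and 71 were called there in that direction, which is 32.4% of the 219 and 18.0% of the 394 called under vehicle (2.85% of the genes tested). Mfge8 differed by 2.33 under YM-155 and 1.99 under vehicle, Slc7a11 by 2.23 and 2.59, Lpar3 by -2.98 and -3.56 and Itga7 by -2.97 and -3.13 in the same order. In A/J YM-155 tumours 201 of the 219 had the same direction and 63 were called, which is 28.8% of the 219 and 26.9% of the 234 called there (1.69% of the genes tested). In those tumours the differences were 1.71 for Mfge8, 1.72 for Slc7a11, -3.37 for Lpar3 and -2.79 for Itga7.

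No gene passed the test of the difference itself. The interaction of the WGD effect with treatment in NSG mice called 0 of 13826 genes with limma and 0 with voom, with 1400 (10.1%) at an unadjusted p under 0.05. With the 12 NSG libraries alone it called 29, of which 26 had a more positive WGD effect under YM-155, and without the 4 A/J libraries that stand apart it called 57, 41 of them more positive. Single values of this interaction are therefore given under both models. The interaction with host under YM-155 also called 0 with limma and 0 with voom, with 1058 (7.65%) at an unadjusted p under 0.05.

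Some genes called under YM-155 had little or no WGD difference under vehicle. They were chosen for their change in the same YM-155 libraries that enter the interaction, a choice that favours a large interaction and a small p. This holds for Bok and Phlda3 below as well. Of the 219 called genes 78 had an unadjusted limma p under 0.05 for this interaction, against 10.1% of all genes tested. That excess is favoured by the same choice. For S100a4 the difference was 2.18 under YM-155 and 0.31 under vehicle, where the levels were 4.71, 4.51 and 4.63 in WGD+ tumours, against 4.35, 4.69 and 3.87 in WGD- tumours. The interaction was 1.87 (SE 0.41), with a limma adjusted p of 0.163 over all groups and 0.0158 with the 12 NSG libraries alone. S100a6 and Emp3 differed by -0.07 and 0.07 under vehicle, with interactions of 1.55 and 1.58 (limma adjusted p = 0.182 for both over all groups, and 0.068 and 0.0158 with the 12 NSG libraries). Plaur differed by 0.14 under vehicle, with an interaction of 1.11 (limma adjusted p = 0.249 over all groups and 0.0444 with the 12 NSG libraries). In A/J YM-155 tumours the differences were -0.14 for S100a4, -0.27 for S100a6, -0.17 for Emp3 and 0.23 for Plaur, and 0 of the 4 genes were called there.

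Bok, a gene of the BCL2 family that promotes apoptosis and was not on the apoptosis list, had the smallest p of the interaction with treatment. Bok had 5.12, 5.99 and 5.40 in WGD+ tumours, against 4.0, 4.29 and 4.39 in WGD- tumours under YM-155, a change of 1.28 (SE 0.23, limma adjusted p = 0.00487). Under vehicle it had 4.60, 4.56 and 4.69 in WGD+ tumours, against 5.34, 4.91 and 5.26 in WGD- tumours, so that the forms were apart in the opposite order. The interaction was 1.83 (SE 0.33), with a limma adjusted p of 0.139 over all groups and 0.0158 with the 12 NSG libraries. Phlda3 behaved likewise, with a difference of 0.73 under YM-155 and -0.36 under vehicle and an interaction of 1.08 (SE 0.22, limma adjusted p = 0.144 over all groups and 0.0444 with the 12 NSG libraries). In A/J YM-155 tumours the differences of Bok and Phlda3 were -0.22 and -0.38. Among the genes named with a more negative WGD effect under YM-155 than under vehicle, Wnk4 had the smallest interaction p. Its interaction was -1.63 (limma adjusted p = 0.144 over all groups and 0.0455 with the 12 NSG libraries). Areg and Crabp2, lower in WGD+ tumours under both treatments, had smaller differences under YM-155 (-1.16 and -2.03) than under vehicle (-2.29 and -3.33). Their interactions were not called (limma adjusted p = 0.328 and 0.445 over all groups, and 0.114 and 0.247 with the 12 NSG libraries).

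**Figure D4:**
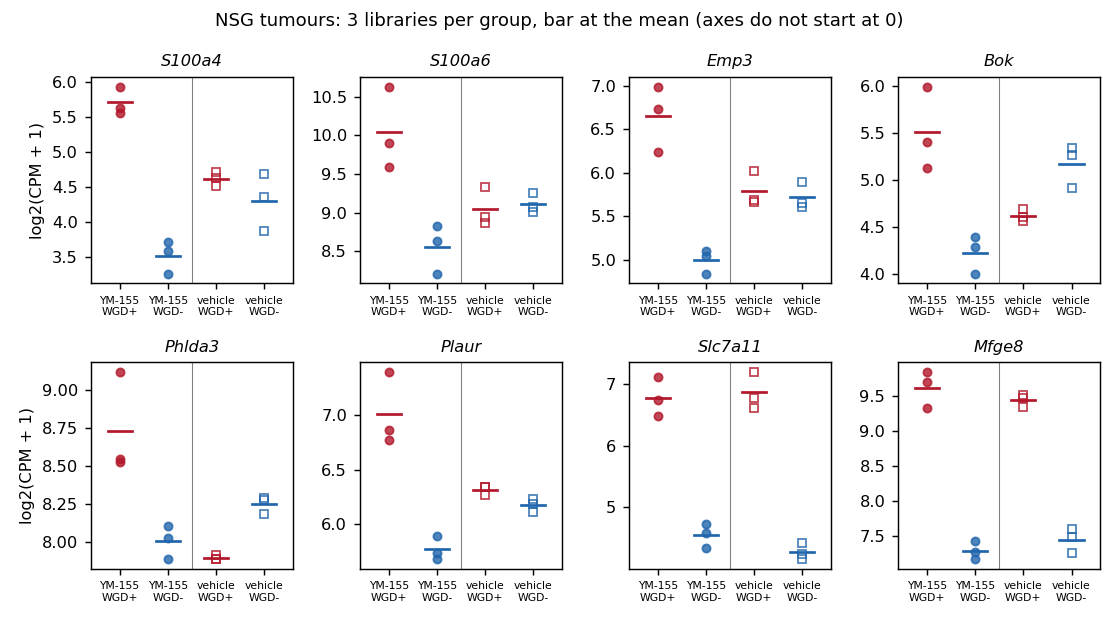
Level in log2(CPM + 1) of 8 named genes in NSG tumours, 1 point per library and a bar at the mean, with WGD+ in red left of WGD- in blue, YM-155 (filled circles) left of vehicle (open squares); axes do not start at 0. S100a4, S100a6, Emp3, Bok, Phlda3 and Plaur separate the forms under YM-155 by more than under vehicle, and Slc7a11 and Mfge8 separate them under both.

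**Figure D5:**
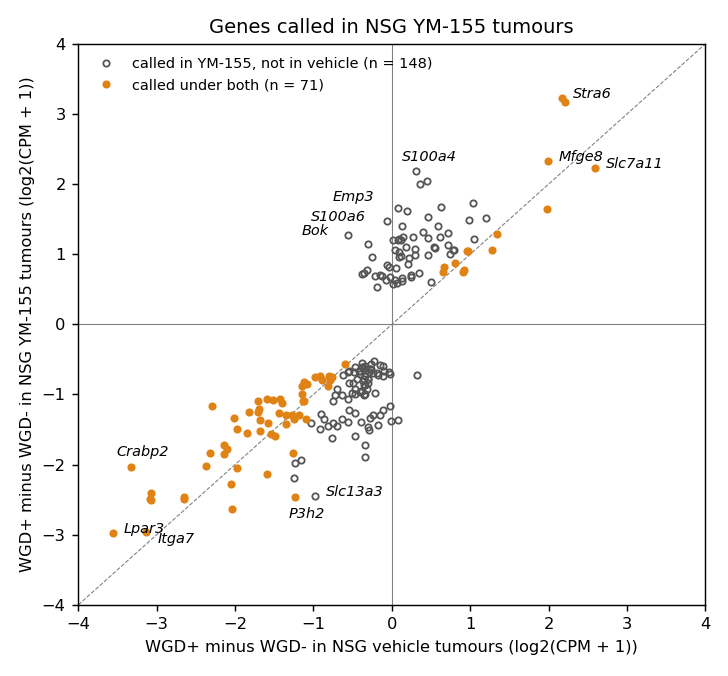
WGD+ minus WGD- change on the log2(CPM + 1) scale for the 219 genes called in NSG YM-155 tumours (vertical) against the same change in NSG vehicle tumours (horizontal), filled for the 71 called under both, with the line of equal change dashed. Most points lie in the quadrants of equal sign, and many of the genes not called under vehicle lie near the vertical axis.

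The cholesterol list, with a median change of -0.45 under YM-155, had one of -0.04 in NSG vehicle tumours and -0.49 in A/J YM-155 tumours. The interaction with treatment had an unadjusted p under 0.05 for 5 of its 20 genes, and it was called for 0. The matrix protease list had medians of 0.71 under YM-155, -0.25 in NSG vehicle and 0.06 in A/J YM-155 tumours. The fibroblast markers had 0.92, -0.37 and 0.61 in the same order, and the macrophage markers 0.91, 0.21 and 0.41. The type I interferon list had 0.56 under YM-155 and 0.60 under vehicle in NSG mice and -0.19 in A/J YM-155 tumours.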

How the data were processed

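RNA was measured by bulk RNA sequencing in mouse tumours, of which 6 libraries were compared here and 24 entered the model. Per the labels' protocols, RNA was extracted with a Qiagen RNeasy kit and stranded TruSeq mRNA libraries were made. Per the submitters' processing notes, STAR 2.5.1b, mm10 and edgeR were used. No source used here gives the gene annotation, the read counter or whether counting used strand.

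The deposited table holds log2 values, scaled by the authors with TMM (trimmed mean of M values) over the experiment, as its name and values show. Read as log2(CPM + 1), the deposited values came out as whole reads, to within 0.1, for 100% of the values checked in each library. The check left out the highest counts. TMM factors came out at 0.946 to 1.06 in the 6 libraries. These recovered reads gave the depth. Each of the 24 columns matched a sample title. Symbols turned into dates were left out (at most 0.206% of the reads of the 6 libraries). Gene coordinates come from GENCODE M21 (mm10).

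All genes above 1 CPM in at least 3 of the 24 libraries (13826 of 24333) went into limma 3.58.1 under R 4.3.3, which estimated 1 mean for each group and moderated variances robustly with an intensity trend. P-values were adjusted by Benjamini-Hochberg over all genes, and calls were made where the adjusted p was under 0.05. Changes under other treatments came from the same fit or from fits of their own tables. The replicate numbers did not pair the libraries.

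The text names Birc5, the 12 genes each way with the largest called change with separated libraries and a level of at least 3 in the higher group (gene models named Gm or Rik, date-like or unmatched symbols and antigen receptor segments left out), up to 4 called members of each of 33 pathway and 18 marker lists (or up to 2 tested ones where none is called), and the smallest p-values of each interaction. The comparison, genes and lists were chosen with earlier results of these data known. Members named for their values in a list that held a call, such as Slc3a2, Phgdh, Dhcr7 and Sqle, were chosen after their values were seen. Promoter windows are from RefSeq. The fit was tested on simulated data. Alternatives covered the filter, pseudocount, normalization, voom on the recovered reads, the samples in the model, a replicate block and each library left out.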

Additional observations from a re-analysis of the deposited data

Results flagged for a closer look

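For 6 of the genes named, all libraries of the forms separated one way under YM-155 in NSG mice and the opposite way in another contrast. Bok, Ier5l, Tspyl2, Mturn and Apc were named for a small interaction p in these same libraries, a choice that favours such an opposite order. Separation under YM-155 alone held for 23.5% of all genes tested, and the share of all genes with opposite orders was not counted. The difference of the effects was tested as an interaction in each case, and with limma over all groups none passed an adjusted p of 0.05.

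Set against NSG vehicle tumours, the WGD effect was more positive under YM-155 for Bok by 1.83 (adjusted p = 0.139), for Phlda3 by 1.08 (adjusted p = 0.144) and for Ier5l by 1.79 (adjusted p = 0.144). Ier5l, an immediate early response gene, had 5.90, 6.80 and 6.19 in WGD+ tumours, against 5.77, 5.40 and 5.10 in WGD- tumours under YM-155. Under vehicle it had 5.26, 5.21 and 5.48 in WGD+ tumours, against 6.36, 6.17 and 6.17 in WGD- tumours. With the 12 NSG libraries alone the interactions of all 3 genes were called (limma adjusted p = 0.0158 for Bok, 0.0444 for Phlda3 and 0.0362 for Ier5l).

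The WGD effect was more negative under YM-155 than under vehicle for Tspyl2 by -1.05 (limma adjusted p = 0.163), for Mturn by -1.27 (limma adjusted p = 0.278) and for Apc by -0.64 (limma adjusted p = 0.369). With the 12 NSG libraries alone these interactions were not called either (limma adjusted p = 0.0652, 0.125 and 0.16 in the same order). Tspyl2, which lies on the X chromosome, had 3.8, 3.74 and 3.61 in WGD+ tumours, against 4.35, 4.73 and 4.26 in WGD- tumours under YM-155. Under vehicle it had 4.04, 4.22 and 4.22 in WGD+ tumours, against 3.68, 3.93 and 3.91 in WGD- tumours. Apc, the regulator of beta-catenin turnover, had 6.14, 5.54 and 6.27 in WGD+ tumours, against 6.46, 6.30 and 6.34 in WGD- tumours under YM-155.

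Set against A/J YM-155 tumours, the WGD effect in NSG YM-155 tumours was more negative for Mturn by -1.50 (limma adjusted p = 0.525) and for Apc by -0.86 (limma adjusted p = 0.581). Mturn had low levels of 1.52, 1.23 and 1.54 in WGD+ tumours, against 1.66, 1.84 and 2.24 in WGD- tumours.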

How the results depend on the processing

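The number of genes called between the forms was 151 without the filter on low values, 221 with a pseudocount of 0.25 CPM, 246 after quantile normalization, 257 with voom, 296 with the 6 libraries alone and 230 without robust estimation, against 219. It was 952 with the 12 NSG libraries alone and 979 without the 4 A/J libraries that stand apart, a choice made after seeing the data, and 52 to 156 with 1 of the 6 libraries left out. Of the 40 called genes named, between 12 (without WGD+ replicate 3) and 22 (without WGD- replicate 2) lost their call then. The interaction with treatment called 29 genes with the 12 NSG libraries (the groups it compares), 57 without the libraries that stand apart and 0 to 2 with 1 library left out, against 0. That with host called 3 without the libraries that stand apart and 0 to 1 with 1 library left out, against 0. The spread of the A/J libraries enters these fits or not by construction.

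The replicate block gave 287 calls between the forms and 2 in the interaction with host. Deviations of same-numbered libraries correlated at -0.058, 0.099 and -0.043 and 0 of 6 libraries correlated best with its own number, so the numbers were not taken as pairs. Chromosome medians, added after seeing the data, were -0.28 to -0.25 for chromosome 2, -0.19 to -0.17 for chromosome 5 and -0.26 to -0.23 for chromosome 14 with 1 library left out. That of chromosome 5 was -0.17 after quantile normalization, against -0.19. Over 58 values of single genes and all alternatives, 819 of 968 recomputed values stayed on the same side of the threshold, 122 lost their call, 27 gained one and 0 changed direction. Depth limits low genes, since 1 read was worth 0.134 to 0.167 CPM.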

Other observations

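Across the other WGD contrasts of the series, none of which includes the 6 libraries compared here, the 219 genes kept their direction to different extents. In A/J vehicle tumours, whose libraries entered the shared estimate of the spread, 186 of 219 had the same direction. In A/J mice, 175 of 215 did under the isotype antibody, 182 of 215 under anti-PD-L1 and 199 of 215 under anti-CD8. At day 8 and day 14 the counts were 132 and 176 of 217.

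Adipocyte and mast cell markers had medians of 0.58 and 1.16 with 0 called. Mast cell markers summed to 6.41, 41.5 and 19.3 CPM in WGD+ tumours, against 7.65, 6.01 and 4.87 CPM in WGD- tumours, so the sum was highest in WGD+ replicate 2. The host strain carries a transgene for KITLG, the growth factor of mast cells, in both forms.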
